A study of Danio rerio with 6 samples.

Results

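The glucocorticoid receptor and the genes through which its signal is limited and passed on were examined in regenerating tail fins of larval zebrafish given beclomethasone. The set holds 10 genes of the 8793 that the array annotation names: the receptor gene nr3c1, its co-chaperone gene fkbp5, and the feedback targets tsc22d3, klf9, dusp1, nfkbiab, socs3a, cisha, cebpa and cebpb. They were chosen by gene name from these known roles, with the difference between treated and control fins in this series already seen. Their values in that contrast are therefore given as a description, with differences and standard errors but no p-value. All 10 genes had a probe set with a single gene symbol. Nr3c1 had 3 probe sets and the other 9 genes had 1 each, which makes 12 of the 15502 probe sets tested.

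Larvae of the AB strain had the caudal fin amputated at 2 days post fertilization, and the regenerate was collected 1 day later. Treated larvae received 1 uM of the synthetic glucocorticoid beclomethasone in their water. The series text calls the control larvae vehicle (DMSO) controls, but the protocol given with the control samples covers a regeneration time course without naming a vehicle. Each group has 3 pools of 150 fins, and each pool went on 1 Affymetrix zebrafish array. Nothing states whether pools came from separate clutches or days, so the spread between pools may be partly technical, and handling and treatment cannot be told apart where they differed between the groups.

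The glucocorticoid receptor waits in the cytoplasm in a complex with the chaperone Hsp90 and its partners, and moves to the nucleus when hormone binds. There it activates genes that damp its own signal, such as fkbp5, and genes that restrain inflammatory signalling, such as the NF-kB inhibitor genes and the phosphatase gene dusp1. In mammals, the receptor also lowers its own transcript in many tissues. Glucocorticoids are known to block fin regeneration in zebrafish larvae.

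The deposited values are ratios with no level. For each of these 12 probe sets the 6 ratios had a median of 1. A ratio of 1 thus lies midway between the pools, and only differences within a probe set are meaningful. Signal over background is unknown. Array medians ran from 0.955 to 0.998. The number of arrays, 3 per group, limits every value. As fins were pooled whole, fewer cells of a type and less RNA per cell cannot be told apart.

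The pools differed in markers of several cell types. Epidermal markers (26 genes, 35 probe sets) had median log2 ratios of -0.25, -0.22 and -0.36 in treated pools 1, 2 and 3, against 0.29, 0.03 and 0.16 in control pools 1, 2 and 3. Every treated median was below every control median. In limma, 15 of the 35 probe sets fell (42.9%) and 2 rose (5.71%), against 3.24% and 2.88% of all probe sets tested. The marker lists were chosen with earlier results of these data known, so nothing is read from such shares. Skeletal muscle markers (22 genes, 25 probe sets) had medians of 0.75, 0.02 and 0.05 in the treated pools, against -1.61, -0.02 and -1.15 in the control pools. Pan-leukocyte markers (10 genes, 13 probe sets) had medians of -0.13, -0.0007 and 0.0007 in the treated pools and of -0.22, 0.53 and 0.60 in the control pools. Markers of liver and yolk (22 genes, 24 probe sets) had medians of 0.16, 0.88 and 0.03 in the treated pools and of -0.31, -0.37 and -0.14 in the control pools. Control pool 1 thus had the lowest muscle and leukocyte medians, and treated pool 2 the highest liver and yolk median. Macrophage markers (10 genes, 11 probe sets) had medians of -0.28, -0.05 and -0.10 in the treated pools, against -0.03, 0.50 and 0.45 in the control pools. Erythroid markers (10 genes, 11 probe sets) had medians of -0.01, 0.08 and 0.20 in the treated pools, against -0.70, -0.03 and -0.23 in the control pools. Fin mesenchyme and osteoblast markers (18 genes, 27 probe sets) lay between -0.05 and 0.05 in the treated pools and between -0.11 and 0.01 in the control pools. As for epidermis, every treated median was below every control median for macrophages (nearest -0.05 and -0.03). Every treated median was above every control median for muscle (nearest 0.02 and -0.02), erythroid (-0.01 and -0.03) and liver and yolk markers (0.03 and -0.14). Few probe sets of these lists were called in limma. Of the muscle probe sets 1 of 25 rose (4%), and of those of liver and yolk 1 of 24 (4.17%), and none fell. Of the macrophage probe sets 1 of 11 fell (9.09%) and none rose, and no erythroid probe set was called. Of the pan-leukocyte probe sets 1 of 13 rose (7.69%), and of those of fin mesenchyme and osteoblast 1 of 27 (3.7%), and none fell. Whether any marker was absent cannot be read from ratios, and the part of these markers in the results on the receptor genes was not tested.

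**Figure D1:**
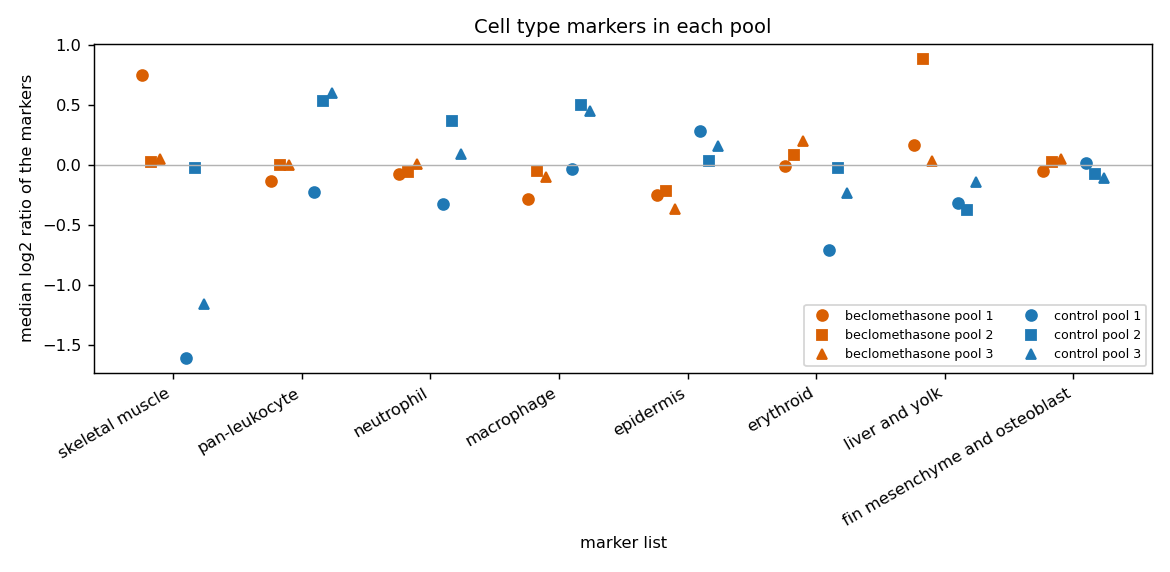
Median log2 ratio of the probe sets of each marker list (vertical axis) in the 3 treated pools (orange, left) and the 3 control pools (blue, right), with the marker shape giving the pool number. Treated pools are below control pools for epidermis and, narrowly, macrophages, and above them for muscle, erythroid and liver and yolk markers. Control pools 1 and 3 are low for muscle, control pools 2 and 3 are high for leukocytes, and treated pool 2 is high for liver and yolk.

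In all 3 treated pools, fkbp5, tsc22d3, klf9, dusp1, nfkbiab, socs3a and cebpa lay above all 3 control pools, by 1.92-fold (nfkbiab) to 8.74-fold (fkbp5). Cisha lay below in every treated pool, by 2.57-fold. Of the 3 probe sets of nr3c1, 1 was lower without overlap, by 1.27-fold, and 2 overlapped. The groups also overlapped for cebpb. Over all probe sets tested, 14.5% had every treated pool above every control pool and 11.8% had every treated pool below. Since the genes were chosen with this contrast known, nothing is read from 7 and 2 of the 12 probe sets against those shares.

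**Figure D2:**
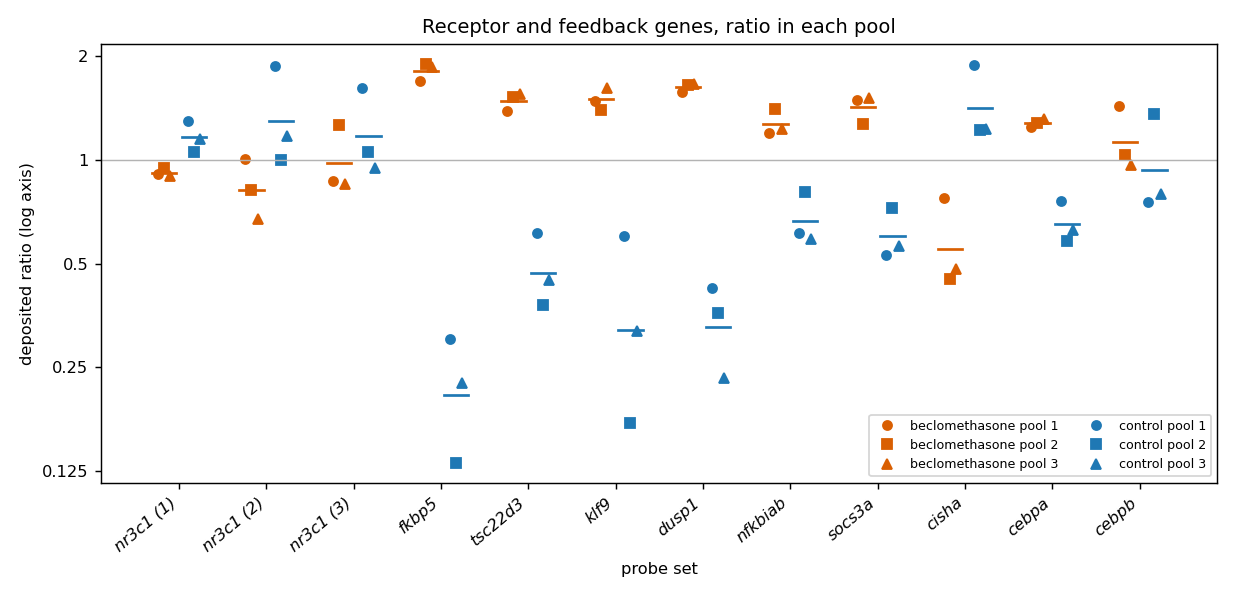
Deposited ratio (vertical axis, log scale) of each probe set in the 3 treated pools (orange, left) and the 3 control pools (blue, right), with horizontal bars at the geometric mean of a group. For fkbp5, tsc22d3, klf9 and dusp1 the treated pools sit close together between 1.39 and 1.90, and the control pools spread between 0.132 and 0.613.

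The receptor gene nr3c1 encodes the nuclear receptor that binds cortisol and beclomethasone. The first of its probe sets had ratios of 0.912, 0.946 and 0.898 in treated pools 1, 2 and 3, against 1.29, 1.05 and 1.15 in control pools 1, 2 and 3. The treated pools lay just below the control pools, and the difference of treated minus control was -0.34 ± 0.11 on the log2 scale (SE from the limma fit, n = 3 pools per group). The second probe set had ratios of 1.00, 0.818 and 0.672 in the treated pools and of 1.87, 0.997 and 1.17 in the control pools. Here treated pool 1 was level with control pool 2, and the difference was -0.66 ± 0.25. The third probe set had ratios of 0.866, 1.26 and 0.853 in the treated pools and of 1.62, 1.05 and 0.948 in the control pools. Treated pool 2 was above 2 of the 3 control pools, and the difference was -0.26 ± 0.24. All 3 probe sets were highest in control pool 1. Without that pool the 3 differences were -0.26, -0.40 and -0.03. The third was -0.45 without treated pool 2, -0.17 without treated pool 3 and -0.42 without control pool 3. The mean of the 3 probe sets was -0.15 ± 0.16 in treated and 0.27 ± 0.33 in control pools (log2 ratio, SD, n = 3 each), a difference of -0.42.

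Fkbp5 encodes the immunophilin that joins the receptor's Hsp90 complex and lowers its affinity for hormone, and is the best known feedback gene of the receptor. Its ratios were 1.70, 1.90 and 1.86 in treated pools 1, 2 and 3, against 0.302, 0.132 and 0.225 in the control pools. The treated pools agreed to within 1.12-fold, while the control pools spread over 2.28-fold. The difference was 3.13 ± 0.27 on the log2 scale, the 11th highest of the 15502 probe sets. With any 1 pool left out it lay between 2.80 and 3.40.

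Tsc22d3, also known as Gilz, encodes a leucine zipper protein that in mammals binds NF-kB and AP-1 and blocks their action. Its ratios were 1.39, 1.52 and 1.55 in the treated pools, against 0.613, 0.379 and 0.448 in the control pools. All treated pools were well above all control pools, and the difference was 1.66 ± 0.18. Klf9 encodes a zinc finger repressor that the glucocorticoid receptor induces directly. Its ratios were 1.48, 1.40 and 1.62 in the treated pools and 0.600, 0.172 and 0.318 in the control pools. The control pools differed 3.49-fold among themselves, the widest spread within a group among the 12 probe sets. The difference of klf9 was 2.23 ± 0.40, or 1.78 without control pool 2.

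Dusp1 encodes a nuclear phosphatase that switches off p38 and JNK kinases. Its ratios were 1.58, 1.65 and 1.66 in treated pools 1, 2 and 3, against 0.424, 0.359 and 0.233 in control pools 1, 2 and 3. The treated pools were nearly equal and far above the control pools, with a difference of 2.31 ± 0.21 (4.96-fold). Dusp1 ranked 25th from the top over all probe sets and klf9 31st, while tsc22d3 ranked 93rd. The ranks from the top were 224 for socs3a, 392 for cebpa, 409 for nfkbiab and 2362 for cebpb. From the bottom they were 64 for cisha and 1643, 528 and 2238 for the 3 probe sets of nr3c1. The genes were chosen with this contrast known, so nothing is read from the ranks.

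Nfkbiab encodes 1 of the zebrafish copies of the NF-kB inhibitor alpha, which holds NF-kB in the cytoplasm. Its ratios were 1.19, 1.41 and 1.23 in the treated pools and 0.612, 0.807 and 0.590 in the control pools, with a difference of 0.94 ± 0.15. Cebpa encodes a basic leucine zipper factor of epithelial, liver and myeloid differentiation. Its ratios were 1.24, 1.28 and 1.31 in the treated pools and 0.759, 0.583 and 0.626 in the control pools, with a difference of 0.97 ± 0.12. Nfkbiab was 1.92-fold and cebpa 1.96-fold higher, with no overlap between the groups. Cebpb encodes a related factor of inflammatory and wound responses. Its ratios were 1.43, 1.03 and 0.968 in the treated pools and 0.756, 1.36 and 0.794 in the control pools. Treated pool 1 and control pool 2 were the highest 2 pools, and the difference was 0.27 ± 0.25. It was 0.10 without treated pool 1. Dropping control pool 1, 2 or 3 gave 0.12, 0.54 and 0.15 in that order.

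Socs3a and cisha encode members of 1 protein family, the suppressors of cytokine signalling, which bind activated cytokine receptors and JAK kinases. Their values went opposite ways. Socs3a had ratios of 1.49, 1.27 and 1.51 in the treated pools, against 0.531, 0.725 and 0.562 in the control pools, a difference of 1.24 ± 0.15. Cisha had ratios of 0.776, 0.450 and 0.484 in the treated pools, against 1.89, 1.22 and 1.23 in the control pools, a difference of -1.36 ± 0.25. Neither gene's groups overlapped. Cisha was highest within each group in pool 1. The epidermal markers given above were also lower in every treated pool than in every control pool. Their medians lay between -0.36 and -0.22 in the treated pools and between 0.03 and 0.29 in the control pools. Within the groups they were highest in treated pool 2 and control pool 1. Their part in the cisha difference was not tested. Among the control pools, socs3a, nfkbiab and cebpb were each highest in pool 2. Neutrophil markers (6 genes, 9 probe sets) were also highest in that pool. Their medians were -0.07, -0.06 and 0.01 in the treated pools, against -0.33, 0.37 and 0.09 in the control pools. In limma 1 of the 9 neutrophil probe sets rose (11.1%) and none fell, against 2.88% and 3.24% of all probe sets tested. Nothing is read from these shares. Macrophage markers were highest in control pool 2 too (0.50), but pan-leukocyte markers in control pool 3 (0.60, against 0.53 in control pool 2). Among the treated pools, the neutrophil median and socs3a were highest in pool 3, nfkbiab in pool 2 and cebpb in pool 1. The part of these markers in the 3 genes was not tested. Without control pool 2 the socs3a difference was 1.38.

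**Figure D3:**
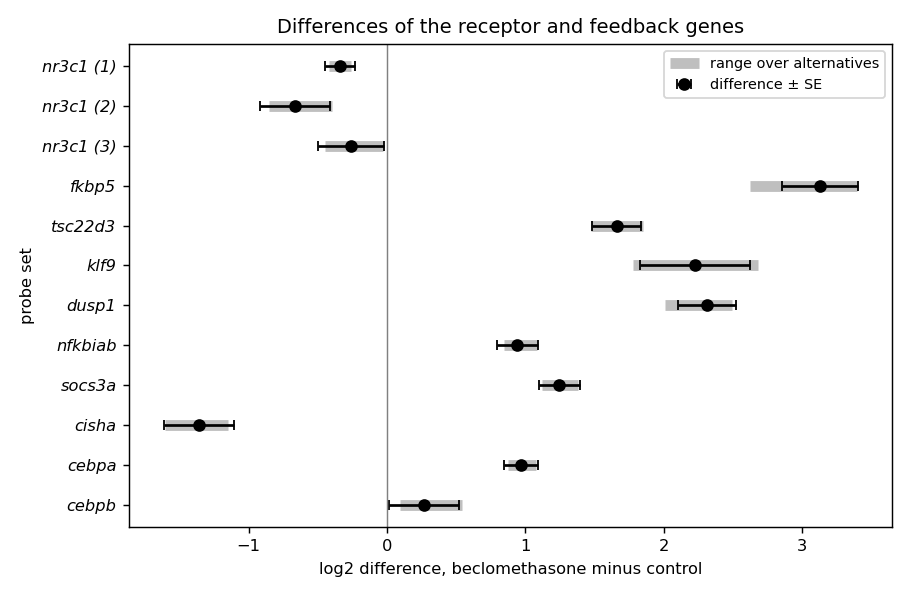
Difference of treated minus control on the log2 scale (horizontal axis) for each probe set, as a point with its standard error, over a grey bar for the range of that difference across the alternatives, including each pool left out. The differences run from -1.36 for cisha to 3.13 for fkbp5, and the bars of the third nr3c1 probe set and of cebpb come closest to 0.

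The spread between pools of the same group is given as a description only. The difference of group means does not use it, but whether the groups overlap depends on it. The 12 probe sets share the same 6 arrays and 3 of them belong to nr3c1, so they are not independent. Nothing is therefore read from the counts below against the shares over other probe sets. The SD of the log2 ratios was larger in control pools for 11 of the 12 probe sets, against 50.8% of all probe sets tested. Cisha was the exception, with an SD of 0.43 in treated and 0.36 in control pools. For fkbp5 the SD was 0.09 in treated and 0.60 in control pools, for klf9 0.10 and 0.90, and for dusp1 0.04 and 0.45. Of the 372 probe sets that had all treated pools above and a difference of at least 0.94, that of nfkbiab, 53.5% had the larger SD in control pools. The 7 probe sets of the present genes among them all did. Control pool 1 was the highest control for 5 of these 7, namely fkbp5, tsc22d3, klf9, dusp1 and cebpa, and control pool 2 for nfkbiab and socs3a. Among the 372 probe sets, control pool 1 was the highest control in 28.2%.

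The residual SD of 10 of the 12 probe sets was above the median of all probe sets, 0.17 on the log2 scale. The values ran from 0.11 for the first probe set of nr3c1 to 0.64 for klf9, at percentiles of 23.9 and 98.5.

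The genes closest to 3 of these patterns were taken as the probe sets with the smallest root mean square difference of centred log2 ratios over the 6 arrays. For fkbp5 they were gldc of glycine cleavage (0.36), desi1a (0.38) and sult2st2, a sulfotransferase gene (0.39). For cisha they were agr1, an epidermal secretory gene (0.15), the annexin gene anxa1c (0.21) and scinlb, of an actin-severing protein family (0.22). For the first probe set of nr3c1 they were plcd1b (0.03), trnau1apb (0.04) and the clock gene bmal1a (0.05). For the second they were ddt (0.15), cst3 (0.16) and capn1 (0.17), and for the third steep1 (0.07), mmp2 (0.08) and aldh18a1 (0.09). The probe sets of nr3c1 thus shared none of these genes. The distance is not scaled to the size of a pattern, so it is smaller for probe sets that varied little and not comparable between genes.

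The genes around the receptor were counted from lists that leave out the 10 genes above, with the limma calls over all probe sets (Benjamini-Hochberg adjusted p under 0.05), by which 2.88% of the 15502 probe sets rose and 3.24% fell. The median difference of all probe sets was 0.03. All the lists were chosen with earlier results of these data known, so nothing is read from their counts against those shares. Of 36 probe sets (30 genes) for chaperones of the receptor complex, 3 rose and 2 fell, and the median was 0.09. Ptges3a, which encodes the p23 protein that steadies Hsp90 in its hormone-binding state, had ratios of 1.38, 1.46 and 1.35 in treated and 0.649, 0.569 and 0.531 in control pools. It rose by 1.26 ± 0.11 (limma adjusted p = 0.00207), higher in 3 of 3 treated pools than in any control pool, and passed without any 1 pool.

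Hsp90aa1.2, an inducible Hsp90 gene, had ratios of 1.74, 1.22 and 1.42 in treated and 0.783, 0.758 and 0.600 in control pools in 1 probe set, and of 1.73, 1.44 and 1.25 against 0.754, 0.651 and 0.392 in the other. It rose in both, by 1.02 ± 0.17 and 1.34 ± 0.25 (limma adjusted p = 0.0166 and 0.026). The first lost its call without treated pool 1 or 3 or control pool 3, and the second without any 1 treated pool. Its neighbour hsp90aa1.1 had ratios of 1.27, 1.06 and 1.22 in treated and 0.237, 0.938 and 0.516 in control pools. Every treated pool was above every control pool, and the value was 1.28 ± 0.44 (limma adjusted p = 0.146). It was called, as higher, in 1 of the 6 fits that left out a pool, that without control pool 2. Control pool 1 had the lowest muscle median (-1.61), and among the control pools hsp90aa1.2 was highest there in both probe sets. The part of muscle in these values was not tested. The constitutive hsp90ab1 had values of -0.02 ± 0.12 and -0.19 ± 0.11 (limma adjusted p = 0.959 and 0.399). Cross-hybridisation between these near-identical Hsp90 copies was not tested.

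Fkbp4 encodes FKBP52, which competes with the fkbp5 product for the receptor complex and favours hormone binding. It had ratios of 0.682, 0.852 and 0.738 in treated and 1.29, 1.16 and 1.15 in control pools. It fell by 0.67 on the log2 scale (SE 0.12, limma adjusted p = 0.0226), while fkbp5 was 3.13 higher in the same pools. St13, which encodes the Hsp70 partner Hip, fell by 0.79 (SE 0.16, limma adjusted p = 0.0302). Fkbp4 lost its call without treated pool 1 or 3 or control pool 2 or 3, and st13 without any 1 treated pool or control pool 2. The count of chaperone probe sets that rose was 1 without treated pool 1 or 3, and 2 without treated pool 2 or control pool 3. The count that fell was 0 without treated pool 1 or 3 or control pool 2, 1 without treated pool 2 or control pool 3, and 3 without control pool 1, where ptges3b was added.

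**Figure D4:**
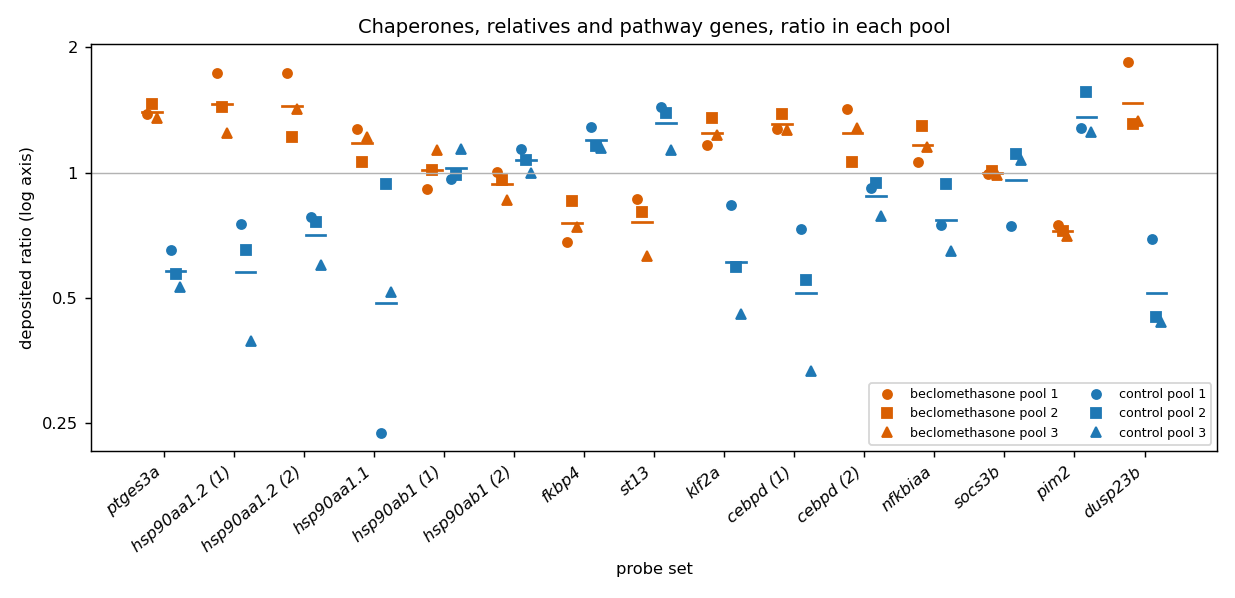
Deposited ratio (vertical axis, log scale) of chaperone genes, relatives and pathway genes in the 3 treated pools (orange, left) and the 3 control pools (blue, right), with bars at the geometric mean of a group. Ptges3a and both probe sets of hsp90aa1.2 are higher and fkbp4 and st13 lower in every treated pool, and socs3b overlaps.

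Of 38 probe sets (29 genes) for steroid receptors and coregulators, 1 rose and 2 fell, and the median was 0.02. Ncoa4, which encodes a receptor coactivator also known as the cargo receptor for ferritin, rose by 1.15 ± 0.12 (limma adjusted p = 0.00379) and passed without any 1 pool. The Hsp90 deacetylase gene hdac6 had -0.52 ± 0.10 and 1 of the 2 probe sets of the chromatin remodeller gene smarca4a -0.57 ± 0.12 (limma adjusted p = 0.0295 and 0.0367), both fallen. The other probe set of smarca4a had -0.36 ± 0.14 (limma adjusted p = 0.191). Hdac6 kept the call only without control pool 2, and the called probe set of smarca4a lost it without any 1 pool. The count that fell was 0 with any 1 treated pool left out and likewise 0 if control pool 1 was dropped. It was 1 (hdac6) if control pool 2 was dropped, and 1 if control pool 3 was, namely smarca2, which was not called with all pools. Without treated pool 3, nr0b2a was called beside ncoa4, for 2 rises. The mineralocorticoid receptor gene nr3c2 was not matched to a probe set.

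Other known targets of the receptor were also counted, from a list chosen with earlier results of these data known. Of 71 probe sets (54 genes), 13 rose, or 18.3%, and 5 fell, or 7.04%, with a median of 0.11. Since the list was chosen that way, nothing is read from these shares against 2.88% and 3.24%. The 4 rises of smallest p belonged to enzymes of steroid turnover. Nothing is read from that grouping either, since it may follow from the choice of the list. Hsd11b2, which inactivates cortisol, rose by 4.54 ± 0.19, sult2st2 by 2.65 ± 0.12, hsd20b2, which reduces cortisone, by 2.23 ± 0.14 in 1 of its 2 probe sets, and the sulfotransferase gene sult2st1 by 2.13 ± 0.14 (limma adjusted p between 8.05e-05 and 0.000619). The other probe set of hsd20b2 had a value of 0.09 ± 0.12 (limma adjusted p = 0.776). Among the other genes of the list that rose were ddit4, by 2.40 ± 0.21, and glula, by 1.84 ± 0.15 (limma adjusted p = 0.00207 and 0.0018). Sgk1, a kinase gene induced by corticosteroids in mammals, had a value of 0.07 ± 0.17 (limma adjusted p = 0.875). The strongest falls by p belonged to annexin A1 genes, which glucocorticoids induce in mammalian leukocytes. Anxa1b fell by 2.96 on the log2 scale (SE 0.27) and anxa1c fell by 1.32 (SE 0.20). The probe sets of anxa1d both fell, with differences of -2.08 ± 0.25 and -2.44 ± 0.37. Limma adjusted p for these 4 probe sets lay between 0.00212 and 0.0125. Anxa1a, of the same family, had a value of -0.06 ± 0.18 (limma adjusted p = 0.902). The epidermal list also holds anxa1a, anxa1b and anxa1c. The count of targets that fell was 3 without treated pool 1, 2 without treated pool 3 and 8 without control pool 1, of which 5 were called with all pools. The anxa1c call was lost without treated pool 3, and that of 1 anxa1d probe set without treated pool 1 or 3.

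**Figure D5:**
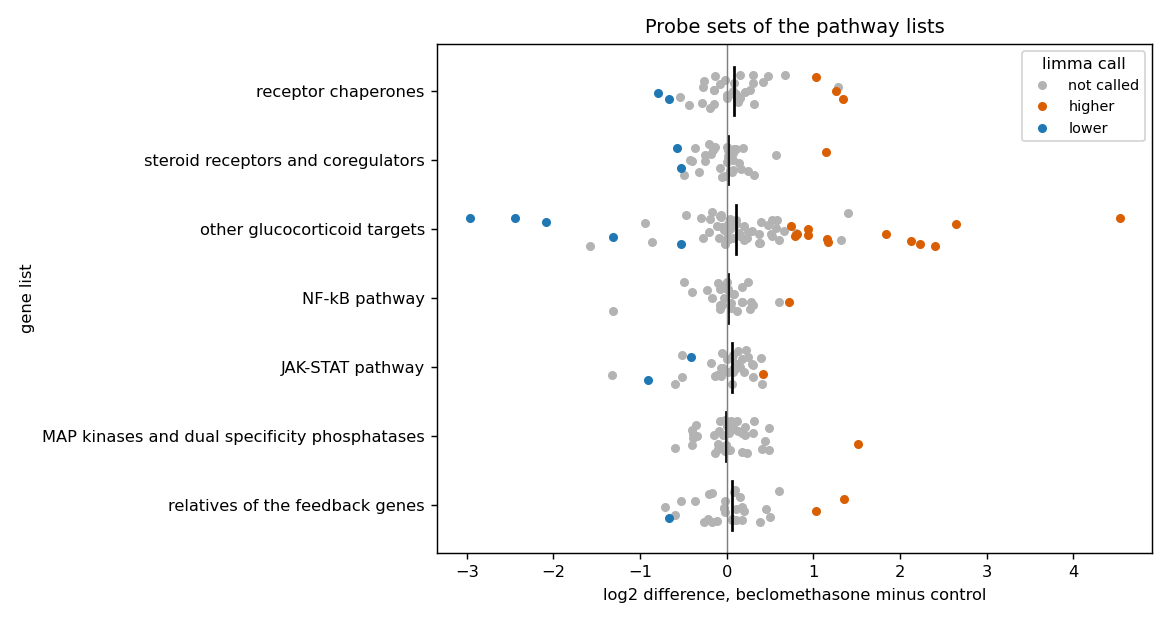
Difference of treated minus control on the log2 scale (horizontal axis) for every probe set of each list, orange where it rose, blue where it fell and grey where it was not called, with a black bar at the list median. The list medians lie between -0.01 and 0.11, and the other glucocorticoid targets reach from -2.96 to 4.54.

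Nfkbiab acts on NF-kB, socs3a and cisha on JAK and STAT proteins, and dusp1 on MAP kinases. The shares called among the other genes of these pathways are given with the 2.88% and 3.24% over all probe sets. These lists too were chosen with earlier results of these data known, so nothing is read from that comparison. Of 29 NF-kB pathway probe sets (26 genes), 1 rose (3.45%) and none fell in limma, with 2 higher and 3 lower before adjustment (p under 0.05), and the median was 0.02. The riser was ripk4, a kinase gene of keratinocyte differentiation (0.71 ± 0.10, limma adjusted p = 0.0112, lost without treated pool 2). Without control pool 1, card9 and mmp9 fell, and without control pool 2, nfkbiaa rose beside ripk4. Nfkbiaa, the other copy of the NF-kB inhibitor alpha gene, had ratios of 1.06, 1.29 and 1.15 in treated and 0.746, 0.937 and 0.647 in control pools. Every treated pool was above every control pool, and the value was 0.60 ± 0.16 (limma adjusted p = 0.0718).

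Of 36 JAK-STAT pathway probe sets (31 genes), 1 rose (2.78%) and 2 fell (5.56%), with a median of 0.06. Pim2, a survival kinase gene that STAT proteins induce, fell by 0.91 on the log2 scale (SE 0.12, limma adjusted p = 0.0074) and passed without any 1 pool. Its relatives pim1 and pim3 had values of the other sign, 0.39 ± 0.10 and 0.23 ± 0.14 (limma adjusted p = 0.0616 and 0.456), and were not called. Stam (0.42 ± 0.10) and 1 of the 4 probe sets of pias4a (-0.41 ± 0.09) passed narrowly (limma adjusted p = 0.0498 and 0.0497) and lost the call without any 1 pool. The other 3 probe sets of pias4a had values of -0.51 ± 0.21, -0.04 ± 0.10 and 0.12 ± 0.09 (limma adjusted p between 0.221 and 0.861). The count that fell was 3 without control pool 1, where irf1b and ptpn6 joined pim2, and 1 without any other pool. Socs3b had ratios of 0.989, 1.01 and 0.988 in treated and 0.745, 1.11 and 1.07 in control pools, a value of 0.06 ± 0.16 (limma adjusted p = 0.897), against 1.24 for its paralog socs3a. The difference between these paralogs was not tested. Cishb, the paralog of cisha, had a value of -0.60 ± 0.15 (limma adjusted p = 0.0655) and was not called. Stat3, a STAT gene of this pathway, had a value of -0.001 ± 0.18 (limma adjusted p = 0.997), which is a transcript difference and not a measure of STAT activity. Socs1a had values of 0.30 ± 0.24 and -0.05 ± 0.16 in its 2 probe sets (limma adjusted p = 0.589 and 0.914). The second had a median ratio of 0.62 over the 6 arrays, so its divisor is unknown.

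Of 41 probe sets (31 genes) for MAP kinases and dual specificity phosphatases other than dusp1, 1 rose (2.44%) and none fell in limma, with 3 higher and 5 lower before adjustment (p under 0.05), and the median was -0.01. Dusp23b, a small atypical phosphatase gene, rose by 1.52 ± 0.22 (limma adjusted p = 0.0106) and passed without any 1 pool. Dusp5 had a value of 0.44 ± 0.23 and dusp6, the feedback phosphatase gene of FGF signalling, values of 0.24 ± 0.13 and -0.05 ± 0.11 (limma adjusted p between 0.338 and 0.873). Without control pool 1, mapk4 and mapk12a rose beside dusp23b and mapk14a fell.

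Among 33 probe sets (30 genes) of relatives of the feedback genes, 2 rose and 1 fell, with a median of 0.06. Cebpd, another gene of the cebpa and cebpb family, rose by 1.35 ± 0.26 in 1 probe set (limma adjusted p = 0.0294) and had 0.50 ± 0.14 in the other (limma adjusted p = 0.0874). Klf2a, a blood-flow responsive relative of klf9, rose by 1.03 ± 0.21 (limma adjusted p = 0.0332), and fkbp4 is the one that fell. Klf2b had a value of -0.71 ± 0.18 (limma adjusted p = 0.0622) and was not called. Cebpg had a value of 0.18 ± 0.18, klf4 of 0.06 ± 0.09 and klf6a of 0.17 ± 0.13 (limma adjusted p between 0.56 and 0.812). The median ratio of klf4 over the 6 arrays was 0.66, so the divisor of its probe set is unknown. Cebp1, a myeloid factor gene, had values of -0.01 ± 0.26 and -0.53 ± 0.14 (limma adjusted p = 0.982 and 0.0752). Cebpd lost its call without any 1 treated pool or control pool 2, and klf2a without any 1 pool other than control pool 1. None of these relatives rose without any 1 treated pool. Without control pool 3 the 1 riser was cebpd, and without control pool 2 it was nfkbiaa, which is on this list too and was not called with all pools. None fell without treated pool 1 or 3 or control pool 2 or 3.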

How the data were processed

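Per the labels' protocols, two-cycle labelled RNA of 3 treated and 3 control pools went on Affymetrix zebrafish arrays, 1 pool each. The submitters' processing notes name GCRMA, a method that corrects background and summarises probes, without giving its role. The values deposited by the authors are linear ratios. Over the 6 arrays, 12557 of 15502 probe sets had a median ratio of 1 (within 1e-06) and 2944 had a lower one, with an unknown divisor. How the authors divided is not stated here. After 115 control probe sets were left out, log2 ratios with no pseudocount or filter entered limma 3.58.1 (R 4.3.3), with two-sided moderated tests and a Benjamini-Hochberg threshold of 0.05. The fit was tested on simulated data. Symbols came from the array annotation (10795 probe sets with 1 symbol, 135 with several, 4572 with none), updated through Entrez numbers.

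The 10 genes and all lists were chosen with earlier results of these data known. Named from the lists were up to 4 rises and 4 falls of smallest p and a set named in any case, of which nr3c2, tsc22d1, klf15, per1a and per1b were not matched. Alternatives were quantile normalization, median centring, a pseudocount of 0.1, a filter on probe sets whose median ratio was under 1, a variance trend with robust fitting, the replicate number as a block, averaging the probe sets of nr3c1, and each array left out. Promoter motifs were not analysed here.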

Additional observations from a re-analysis of the deposited data

How the results depend on the processing

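With 3 arrays per group, counts of calls depended on single pools. Leaving out 1 array gave 176 to 565 probe sets that rose and 180 to 668 that fell, against 446 and 502. Among the lists it gave 1 to 4 rises and 0 to 3 falls for chaperones. For coregulators it gave 1 to 2 and 0 to 1, and for other targets 9 to 15 and 2 to 8. The ranges were 0 to 2 rises and 0 to 2 falls for NF-kB, and 0 rises and 1 to 3 falls for JAK-STAT. They were 1 to 3 and 0 to 1 for MAP kinases and phosphatases, and 0 to 2 and 0 to 1 for the relatives. The labels link same-numbered treated and control pools only by that number. Their deviations from the group means correlated at -0.21, -0.04 and 0.11, and those of differently numbered pools at between -0.25 and 0.26. With 3 pools per group these values cannot show whether any pools shared a clutch or day. With the replicate block, 200 probe sets rose and 236 fell. It gave 1 fall for chaperones, 0 for coregulators, and 9 rises and 3 falls for other targets. There were 0 rises for NF-kB, 0 rises and 1 fall for JAK-STAT and 0 of both for the relatives. The JAK-STAT rise was lost (0) with median centring, with the variance trend and without probe sets with a median below 1, where 1 fell. The variance trend gave 1 fall for MAP kinases and phosphatases and 3 for the relatives. The replicate block and the filter on medians cannot move a difference. Under the 9 alternatives that can, the 12 probe sets gave 108 values, all with the sign of the full data. For the 7 probe sets with all treated pools above and the 2 with all below, many of these signs were fixed beforehand. There, leaving out a pool or adding a pseudocount cannot change the sign. The genes were also chosen with this contrast known, so nothing is read from the shared signs. Of the 108 values, 9 differed from the full data by over 1.5 times, all from nr3c1 (2 probe sets) and cebpb with 1 pool left out. Fkbp5 was 2.62 with a pseudocount of 0.1, which pulls low ratios up. The cause of the other changes was not tested.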
